A study of Mus musculus with 48 samples.

Results

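The change over time in the effect of cadmium on mouse limb bud mesoderm was measured as the cadmium effect at 12 h minus the cadmium effect at 3 h. An effect is the log2 difference between arrays of cadmium-exposed and vehicle-exposed mesoderm at the same time, and the difference between the 2 effects is called the time difference below. It rests on 12 of the 48 arrays of the study, taken by their labels for tissue, agent and time, in 4 groups of 3. Pregnant mice were injected intraperitoneally on gestation day 9.5. The cadmium groups received cadmium sulfate at 4 mg/kg in phosphate-buffered saline (PBS), and the control groups are labelled as PBS vehicle controls. Embryos were collected 3 h or 12 h later, and the mesoderm of the right forelimb bud was separated from its ectoderm with trypsin. The labels give no strain or age of the dams and name no genetic change. They say that tissue of several litters was pooled to obtain RNA and also that the extracts hybridised were not pooled, so the p-values measure only the spread between these arrays, which may be technical. The other 36 arrays used for comparison are cadmium and PBS ectoderm, and mesoderm and ectoderm of embryos exposed to acetazolamide at 400 mg/kg or to its vegetable oil vehicle.

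Cadmium is a toxic metal that binds thiol groups and can take the place of zinc. Cells meet it through the metal-responsive transcription factor MTF-1, which drives genes for metallothioneins (small metal-binding proteins) and for zinc export. DNA damage and other stress can stabilise the transcription factor p53, which raises genes for cell cycle arrest and repair. In the limb bud, the mesoderm is the dividing tissue that forms skeleton and connective tissue under signals from the ectoderm, and cadmium given at this stage is known to cause forelimb defects in mice. The series set 2 teratogens with a similar phenotype side by side, and the comparison here addresses how the cadmium response changed between the times.

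The deposited values were ratios to vehicle mesoderm taken at the same hour. PBS arrays therefore lie around 0 on the log2 scale, with PBS arrays 1 and 2 on either side of 0 and PBS array 3 at 0 by construction. No expression level was kept, so the labelled tissue could not be checked against its markers, and how a gene's level moved in vehicle-exposed mesoderm between the times is not visible. A gene's value in bulk tissue can also fall through fewer cells of a type or through less RNA per cell, which cannot be told apart. On single arrays of the 12, the median log2 ratio lay between -0.0200 and 0.0519. A typical gene's time difference carried a 95% interval of 0.31 to either side (the median over genes).

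Between 3 h and 12 h the cadmium effect in mesoderm turned sharply downward for the metallothionein gene Mt2 and upward for a small group of p53 target genes. Of 8251 genes, 38 had a time difference at an adjusted p under 0.05 (0.461%), in limma with Benjamini-Hochberg adjustment over all genes. The effect was higher at 12 h for 13 genes (0.158%), with differences from 0.54 to 1.99. It was lower for 25 genes (0.303%), with differences from -3.13 to -0.40. At an unadjusted p under 0.05 there were 712 genes (8.63%), 323 higher (3.91%) and 389 lower (4.71%), and the median over all genes was 0.015, with 53.9% of genes above 0. The 38 calls rest on the spread pooled over all 48 arrays with 1 precision weight per comparison. With only the 12 arrays compared, 707 genes had an unadjusted p under 0.05 and 1, Mt2, passed the adjustment. Mt2 was also the 1 call without the weights, and with each array centred on its median the split was 13 higher and 11 lower. Leaving out 1 array gave 71 calls without 3 h PBS array 1 or 2, 5 without 3 h cadmium array 1, 13 without 3 h cadmium array 2 and 7 without 3 h cadmium or PBS array 3. It gave 95 calls without 12 h cadmium array 1, 17 without 12 h cadmium array 2 and 7 without 12 h cadmium or PBS array 3. At each time, leaving out either array 3 also voids the other, because they alone share a term in the fit. Of the 12 such fits, 2 therefore repeat another. The 38 genes kept their direction in every one of these fits, and Mt2, Cdkn1a, Phlda3 and Nek7 kept their call without any 1 array. Gja4 was the other call left without 3 h cadmium array 1.

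For most of the 38 genes the effect at the later time was the larger. The absolute 12 h effect was larger than the 3 h effect in 35 of 38 genes, against 59.9% of all genes. The median absolute effect of the 38 was 0.17 at 3 h and 0.63 at 12 h. At 3 h the 95% interval held 0 for 29 of the 38. No gene of the whole set was called at 3 h, so 0 of the 38 were. At 12 h 188 of all genes were called, 34 of the 38 among them. The 12 h effect also enters the difference that chose the 38. The 3 h and 12 h effects had opposite signs in 34 of 38 genes, 11 of the higher and 23 of the lower ones, against 52.7% of all genes. The 3 h and 12 h cadmium arrays did not overlap in any of the 38, against 22.1% of all genes without overlap. Arrays 1 and 2 and array 3 gave differences of the same sign in all 38, against 62.9% of all genes. A call by the difference itself favours opposite signs, separate arrays and equal signs across arrays, so these counts are descriptions. The 3 genes whose 3 h effect was the larger were Slc30a1, Gosr1 and Herpud1.

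**Figure D1:**
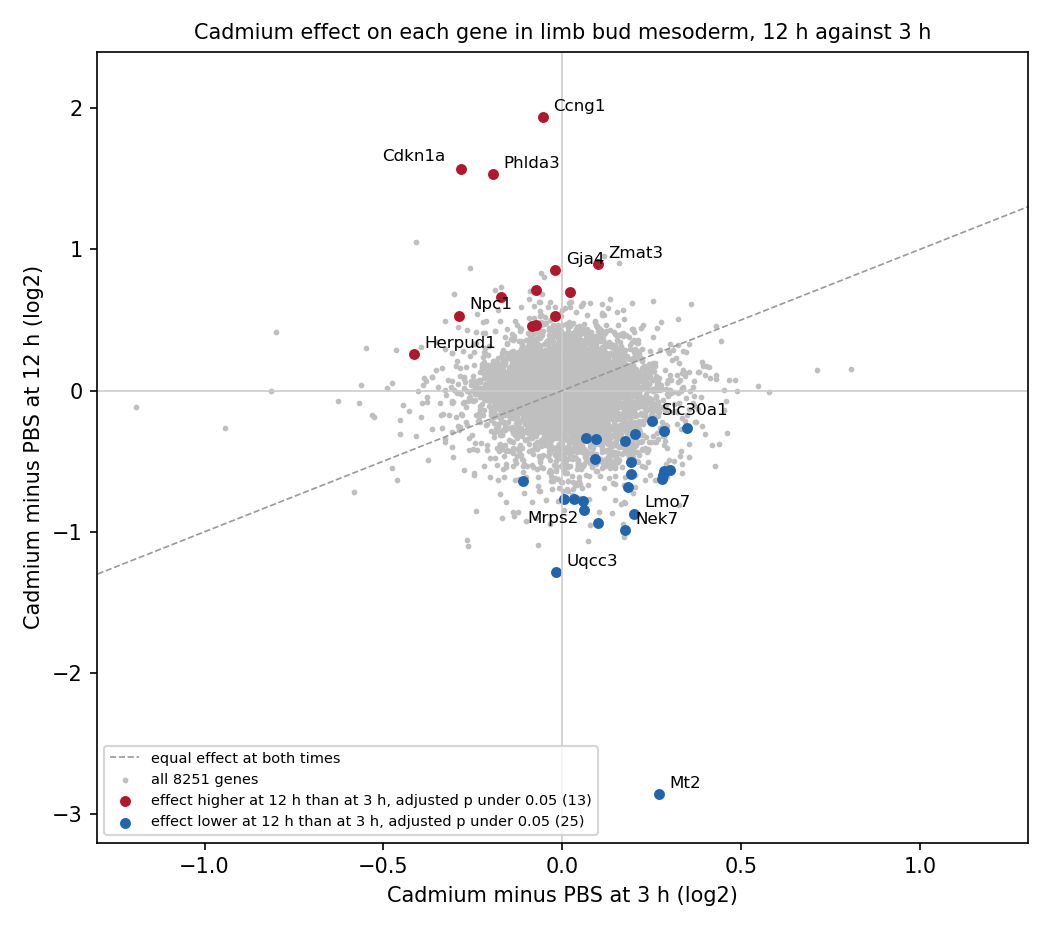
Cadmium effect at 12 h (vertical axis, log2) against the effect at 3 h (horizontal axis, log2) for each of 8251 genes in mesoderm, 3 arrays per group. The 13 genes called higher (red) lie above the dashed line of equal effects and the 25 called lower (blue) below it, with Mt2 at 0.27 and -2.86 farthest from the line.

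Genes of metal handling held the deepest drop. Mt2, which encodes metallothionein 2, had log2 ratios of 0.46, 0.16 and 0.18 on the 3 h cadmium arrays and of -3.27, -2.96 and -2.52 on the 12 h cadmium arrays. PBS arrays 1 and 2 read 0.12 and -0.13 at 3 h, and -0.60 and 0.42 at 12 h. All 3 cadmium arrays were above every PBS array at 3 h and far below every PBS array at 12 h. The interval of the 3 h effect ran from -0.18 to 0.72 (limma unadjusted p = 0.229), so a rise at 3 h was not established. The effect moved from 0.27 to -2.86, a time difference of -3.13 ± 0.30 (SE, limma adjusted p = 4.41e-07), which is a ratio of 8.75-fold. The difference was -3.34 on arrays 1 and 2 and -2.70 on array 3, and over 21 alternative fits it stayed between -3.37 and -2.79 and kept its call.

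Slc30a1 encodes the zinc exporter ZnT1 of the plasma membrane and showed the same order at a smaller size. Its log2 ratios were 0.32, 0.18 and 0.25 on the 3 h cadmium arrays and -0.15, -0.31 and -0.19 on the 12 h cadmium arrays, while PBS arrays 1 and 2 read -0.019 and 0.018 at 3 h, and 0.015 and -0.015 at 12 h. The cadmium arrays lay above all PBS arrays at 3 h and below all of them at 12 h. The time difference was -0.47 ± 0.09 (limma adjusted p = 0.0228). The call ended without 3 h cadmium array 1 (adjusted p = 0.120), 3 h array 3 of either group (0.0947), 12 h array 3 of either group (0.0564) or 12 h cadmium array 2 (0.0548), and over the 21 alternatives the adjusted p ran from 0.00625 to 0.599. Mt1, which encodes metallothionein 1, read 0.24, 0.037 and -0.059 on the 3 h and -0.93, -0.94 and -0.45 on the 12 h cadmium arrays. Its 12 h cadmium arrays lay below all PBS arrays, and its time difference of -0.84 ± 0.21 did not pass (adjusted p = 0.0650). It passed without 3 h PBS array 1 (0.0250) or 12 h PBS array 1 (0.0423). Mt1 and Mt2 are close in sequence, and cross-hybridisation of their probes was not tested.

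The other genes of metal binding and transport were uncalled. Of 21 measured genes of that list, 0 were called higher and 2 lower, against 0.158% and 0.303% of all genes. Above 0 lay 12 of them, against 53.9% of all genes, and the median was 0.0064 beside 0.015. Mtf1, which encodes the metal-responsive factor itself, was at -0.13. The copper transporter gene Atp7a was at -0.50 and the zinc transporter gene Slc39a7 at 0.32, both uncalled, and the brain metallothionein gene Mt3 was at 0.15. The promoters of Mt2 and Slc30a1 are shown because the called genes of this list are known targets of MTF-1. They are RefSeq sequences of build GRCm38.p6 from 250 bases before to 50 bases after the transcription start. Capitals mark the core of the metal response element, TGCACNC or TGCGCNC on either strand, and neither window held a match to the p53 decamer consensus, the other motif searched. The Mt2 window is chr8:94172368-94172667 on the plus strand and the Slc30a1 window is chr1:191906531-191906830 on the plus strand.
Mt2: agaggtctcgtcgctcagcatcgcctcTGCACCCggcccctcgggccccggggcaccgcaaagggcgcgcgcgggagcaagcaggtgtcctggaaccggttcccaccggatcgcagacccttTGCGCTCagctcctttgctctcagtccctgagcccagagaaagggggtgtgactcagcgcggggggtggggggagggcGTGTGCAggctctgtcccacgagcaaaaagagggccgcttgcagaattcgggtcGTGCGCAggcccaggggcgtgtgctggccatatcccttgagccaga
Slc30a1: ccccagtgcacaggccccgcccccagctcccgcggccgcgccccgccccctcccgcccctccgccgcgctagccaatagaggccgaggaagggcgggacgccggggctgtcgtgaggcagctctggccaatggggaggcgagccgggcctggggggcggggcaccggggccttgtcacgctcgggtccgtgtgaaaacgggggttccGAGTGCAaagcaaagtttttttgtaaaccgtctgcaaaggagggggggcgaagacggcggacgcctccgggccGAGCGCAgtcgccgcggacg
The Mt2 window held 4 matches and the Slc30a1 window 2, and the Mt1 window held 3. Of all 32851 promoter windows of this length, 25.7% held at least 1 match, 7.11% at least 2, 1.97% at least 3 and 0.517% at least 4. The 30 called genes with a window had 36 windows, and 14 of these genes held at least 1 match in any window. That count is per gene and the shares above are per window, so they are not directly comparable. A match is a stretch of letters and not a measured binding site.

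Targets of p53 made up the largest upward differences. Cdkn1a, which encodes the cell cycle inhibitor p21, had log2 ratios of -0.56, -0.61 and 0.11 on the 3 h cadmium arrays and 1.23, 1.71 and 1.76 on the 12 h cadmium arrays. Its PBS arrays 1 and 2 read 0.41 and -0.62 at 3 h, and 0.071 and -0.075 at 12 h. The 3 h arrays of both groups overlapped, and the 12 h cadmium arrays lay above every other array. The time difference was 1.85 ± 0.28 (limma adjusted p = 0.00203). Its 2 probe sets differed in size, at 3.05 ± 0.36 and 0.65 ± 0.32, and tested apart the second did not pass (adjusted p = 0.619).

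Ccng1, which encodes cyclin G1, had the largest upward difference of all genes. It read -0.12, 0.0069 and -0.17 on the 3 h cadmium arrays, and 2.38, 1.64 and 1.73 on the 12 h cadmium arrays, with PBS arrays 1 and 2 at -0.48 and 0.36 at 3 h and at 0.26 and -0.31 at 12 h. The 3 h cadmium arrays fell within the spread of the PBS arrays and the 12 h ones stood well above it. The time difference was 1.99 ± 0.38 (limma adjusted p = 0.0202), or 3.98-fold, and the call ended without 3 h cadmium array 1 (0.105) or 3 h array 3 of either group (0.0954). Phlda3, whose product restrains the kinase Akt, read -0.19, -0.47 and 0.027 at 3 h and 1.38, 1.80 and 1.38 at 12 h on the cadmium arrays. Its PBS arrays 1 and 2 read 0.25 and -0.30 at 3 h, and -0.30 and 0.25 at 12 h. The 12 h cadmium arrays lay above all PBS arrays, while at 3 h cadmium array 2 lay below them and the other 2 did not, and the time difference was 1.73 ± 0.28 (limma adjusted p = 0.00323). Zmat3, which encodes a p53-induced RNA-binding zinc finger protein, read 0.14, 0.17 and -0.0036 at 3 h and 0.84, 0.57 and 1.27 at 12 h on the cadmium arrays. Its PBS arrays lay between -0.059 and 0.057, and the time difference was 0.80 ± 0.17 (limma adjusted p = 0.0279). The call ended without 3 h cadmium array 1 (0.126) or 2 (0.0587), 3 h array 3 of either group (0.140) or 12 h array 3 of either group (0.193).

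Of 30 measured p53 targets, 4 were called higher and 0 lower, against 0.158% and 0.303% of all genes. Above 0 lay 20 of them (66.7%), against 53.9% of all genes, and the median was 0.15 beside 0.015. At an unadjusted p under 0.05 there were 7 higher and 0 lower, against 3.91% and 4.71% of all genes. Dpysl4 came next at 0.75 ± 0.18 (adjusted p = 0.0623), followed by the epoxide hydrolase gene Ephx1 at 0.42 ± 0.17 (0.411) and the DNA repair gene Xpc at 0.38 ± 0.17 (0.494). Mdm2, which encodes the ubiquitin ligase that limits p53, was at 0.16, the death receptor gene Fas at -0.025, and Sesn1 at -0.073, all uncalled. The mean log2 ratio of the list lay between 0.31 and 0.34 on the 12 h cadmium arrays and between -0.019 and 0.023 on the 3 h ones. Of 10 measured genes for regulators of p53, 0 were called and 2 lay above 0, with a median of -0.10. The checkpoint kinase gene Chek1 was at -0.55 and Chek2 at 0.37, both uncalled. Earlier results on these arrays had already shown the p53 targets at 12 h, so their list is not independent evidence of direction.

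The promoters of Cdkn1a (chr17:29090729-29091028, plus strand, the first of 2 starts in the table) and Ccng1 (chr11:40755237-40755536, minus strand) are shown because they had the 2 largest upward differences. Capitals mark matches to the p53 decamer consensus.
Cdkn1a: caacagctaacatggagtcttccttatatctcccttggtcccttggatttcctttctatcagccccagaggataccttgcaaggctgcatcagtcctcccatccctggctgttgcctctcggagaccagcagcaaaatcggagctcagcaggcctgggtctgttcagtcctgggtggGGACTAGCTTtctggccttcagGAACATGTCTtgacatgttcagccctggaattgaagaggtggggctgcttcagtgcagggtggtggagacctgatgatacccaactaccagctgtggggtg
Ccng1: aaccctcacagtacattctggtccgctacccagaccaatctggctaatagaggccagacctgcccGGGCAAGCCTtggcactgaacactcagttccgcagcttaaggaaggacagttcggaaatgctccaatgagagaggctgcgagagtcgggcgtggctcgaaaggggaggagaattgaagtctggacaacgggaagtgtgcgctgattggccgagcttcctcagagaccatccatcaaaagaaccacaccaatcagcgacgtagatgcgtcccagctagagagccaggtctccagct
The Cdkn1a window held 2 matches and the Ccng1 window 1, whereas the second Cdkn1a window and the Phlda3 window held 0. At least 1 match was found in 8.36% of all windows and at least 2 in 0.359%. Of the 30 called genes with a window, 2 held a match in any window, a count per gene and not per window.

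**Figure D2:**
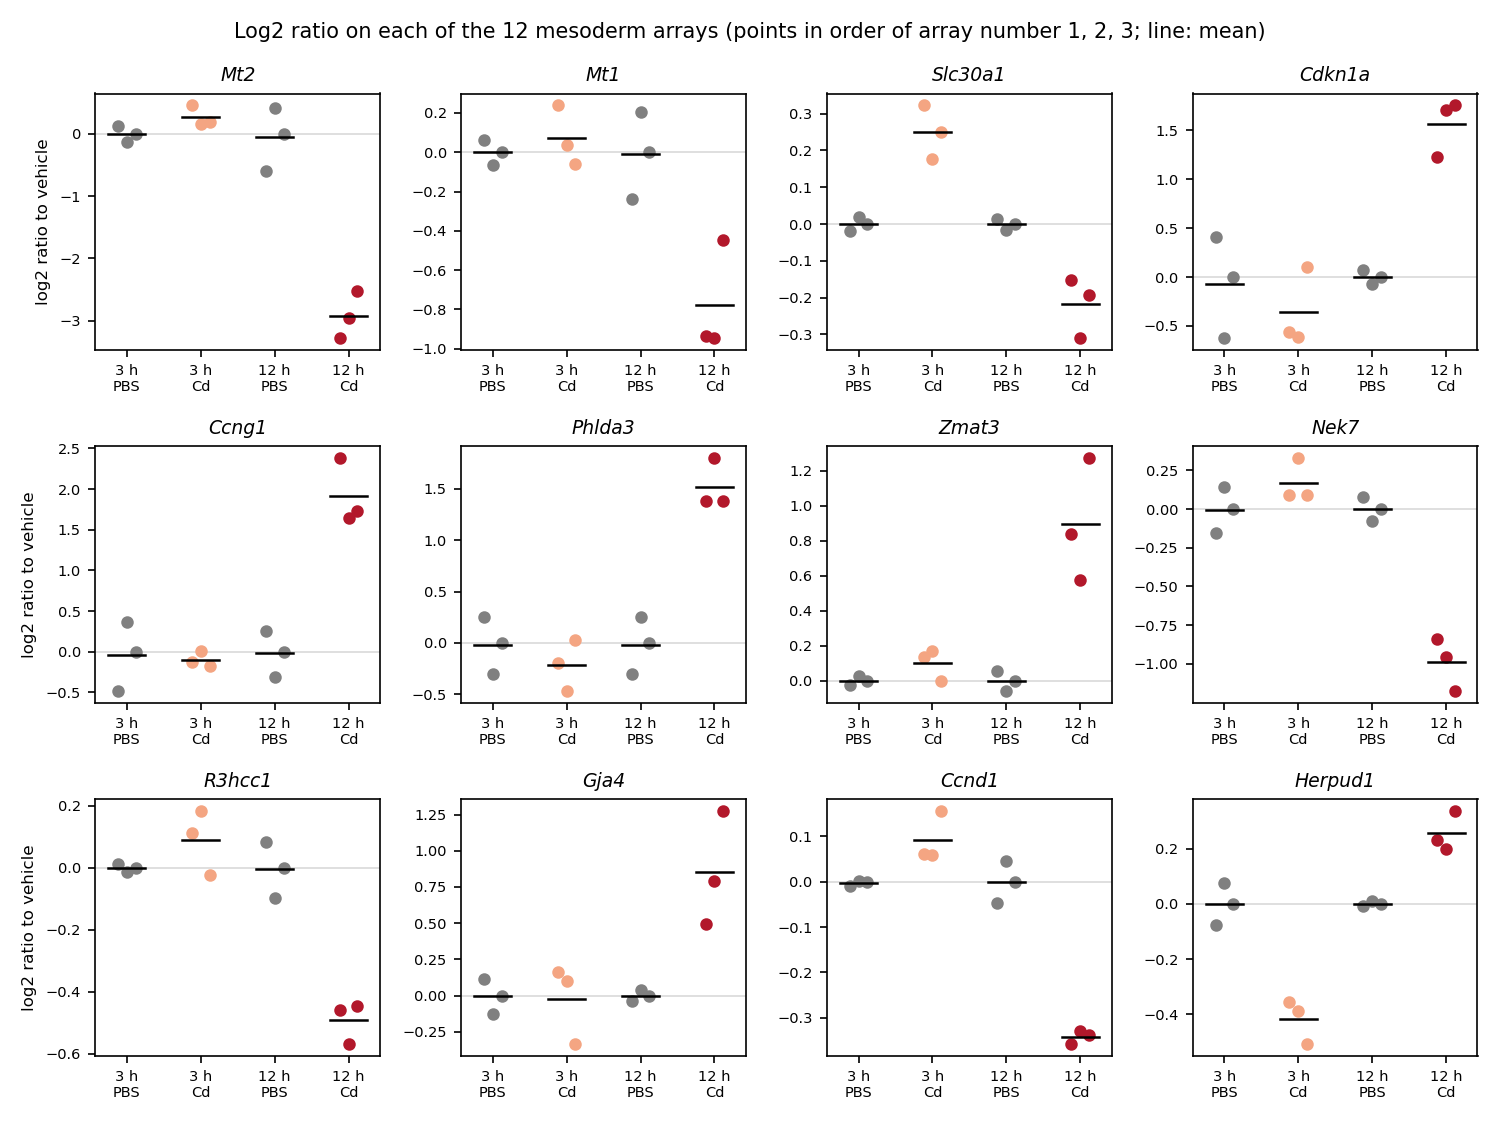
Log2 ratio to vehicle (vertical axis) of 12 genes on each of the 12 mesoderm arrays, grouped by time and by PBS or cadmium (Cd). Points are arrays 1, 2 and 3 and lines are group means. The 12 h cadmium arrays of Mt2 lie between -3.27 and -2.52 and those of Cdkn1a between 1.23 and 1.76, outside all other arrays of these genes.

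Calls among cell cycle genes went both ways. Ccnd1, which encodes cyclin D1 and promotes entry into S phase, read 0.061, 0.059 and 0.16 on the 3 h cadmium arrays and -0.36, -0.33 and -0.34 on the 12 h cadmium arrays. The 12 h arrays lay below all PBS arrays, whose range was -0.046 to 0.045, and the time difference was -0.44 ± 0.09 (limma adjusted p = 0.0231). Its 2 probe sets were at -0.75 and -0.12, and neither passed when tested apart. Nek7, a kinase gene of spindle assembly, read 0.094, 0.33 and 0.089 at 3 h and -0.84, -0.95 and -1.17 at 12 h on the cadmium arrays, with PBS arrays between -0.16 and 0.14. All 12 h cadmium arrays were well below the PBS arrays, and the time difference was -1.16 ± 0.19 (limma adjusted p = 0.00323). Hus1, a subunit gene of the DNA damage clamp, was lower by -0.53 ± 0.12 (adjusted p = 0.0444), with 1 probe set at -1.26 and the other 2 at -0.14 and -0.20.

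Over all genes 0.158% were called higher, 0.303% were called lower and 53.9% lay above 0. Among 27 measured G1 cyclins, kinases and inhibitors, 2 were called higher (Cdkn1a and Ccng1) and 1 lower (Ccnd1), with 10 above 0 and a median of -0.10. Rbl1, a pocket protein gene of the retinoblastoma family, was at -0.91 ± 0.35 and E2f3 at -0.23 ± 0.10, both uncalled. Of 39 measured genes of the mitosis list, 0 were called, 11 lay above 0 and the median was -0.13. The called gene Nek7 was not in this list, so the count of 0 does not cover it. Within that list the kinase gene Nek2 was at -0.71 ± 0.22, cyclin A2 (Ccna2) at -0.47 ± 0.16 and cyclin B2 (Ccnb2) at 0.46 ± 0.20, so its members pointed both ways. Of 48 DNA replication genes, 0 were called and 16 lay above 0, with a median of -0.065.

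The called genes of unfolded protein stress, Herpud1 and Atf6, went in opposite directions. Herpud1, which helps clear misfolded proteins from that compartment, read -0.36, -0.39 and -0.51 on the 3 h cadmium arrays and 0.23, 0.20 and 0.34 on the 12 h cadmium arrays. PBS arrays lay between -0.078 and 0.074, so the cadmium arrays were below them at 3 h and above them at 12 h. The time difference was 0.67 ± 0.15 (limma adjusted p = 0.0330). The call held in 4 of 12 fits that left out 1 array, and the highest adjusted p among the others was 0.179, without 3 h array 3 of either group. Over all 21 alternatives the call held in 8, and the adjusted p ran from 0.00747 to 0.9995. Atf6, which encodes a sensor of misfolded protein, went the other way, from 0.17 at 3 h to -0.36 at 12 h, a time difference of -0.53 ± 0.11 (adjusted p = 0.0231).

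Xbp1, a transcription factor gene of the same response, read -0.65, -0.81 and -1.01 on the 3 h cadmium arrays and 0.26, -0.080 and -0.18 on the 12 h cadmium arrays. Its 3 h cadmium arrays were all below the PBS arrays and its 12 h arrays were not, but its time difference of 0.81 ± 0.26 did not pass (limma adjusted p = 0.197). Of 40 measured genes of unfolded protein and amino acid stress, 1 was called higher and 1 lower, with 22 above 0 and a median of 0.012. The shares over all genes were 0.158% called higher, 0.303% called lower and 53.9% above 0. The stress-induced factor gene Ddit3 was at 0.50 ± 0.17 and the chaperone gene Hspa5 at -0.14, both uncalled. Of 33 heat shock and chaperone genes, 0 were called and 12 lay above 0. The mitochondrial chaperone gene Hspd1 was at -0.33 ± 0.09 and Hspa8 at 0.35 ± 0.14. Hspa1b was at 1.08 and its near-identical neighbour Hspa1a at 0.55, which these probes may not separate.

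Genes of glycolysis were uncalled. Of 32 measured genes of hypoxia and glycolysis, 0 were called, against 0.461% of all genes. Above 0 lay 24 of them, against 53.9% of all genes, and the median was 0.21. At an unadjusted p under 0.05 there were 5 higher and 1 lower, against 3.91% and 4.71% of all genes. Pfkp, a phosphofructokinase gene of the committed step of glycolysis, was at 1.46 ± 0.40 (limma adjusted p = 0.113), and its cadmium arrays read -0.74, 0.0066 and -0.52 at 3 h and 0.80, 0.24 and 2.09 at 12 h. Its 12 h cadmium array 2 stood only just above PBS array 1 at 0.20, and array 3 stood far above the other arrays. Pfkl was at 0.89 ± 0.26, the lactate dehydrogenase gene Ldhb at 0.38 ± 0.11 and Tpi1 at 0.52, while Hif1a, which encodes the oxygen-regulated subunit of the transcription factor HIF-1, was at -0.71, all uncalled.

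Among mitochondrial genes, Uqcc3, which encodes an assembly factor of respiratory complex III, read 0.17, -0.13 and -0.11 at 3 h and -0.95, -1.60 and -1.31 at 12 h on the cadmium arrays. PBS arrays lay between -0.12 and 0.11, all above the 12 h cadmium arrays, and the time difference was -1.27 ± 0.27 (limma adjusted p = 0.0279). Mrps2, which encodes a protein of the small mitochondrial ribosome subunit, was at -1.04 ± 0.21 (adjusted p = 0.0251). Tspo, a protein gene of the outer mitochondrial membrane, was higher at 0.54 ± 0.13 (adjusted p = 0.0444). Dlat, a subunit gene of pyruvate dehydrogenase, was lower at -0.40 ± 0.09 (adjusted p = 0.0474), with 1 probe set at -0.80 and the other at -0.0035. Of 67 genes in the list for the respiratory chain and mitochondrial ribosome, 0 were called higher and 1, Uqcc3, lower. The shares of all genes were 0.158% and 0.303%. The called gene Mrps2 was not in this list, so the count does not cover it. Above 0 lay 44 of the 67, against 53.9% of all genes, with a median of 0.065. The 3 uncalled members of smallest p had the sign of Uqcc3. These were the complex III subunit gene Uqcrc2 at -0.71 ± 0.21 (adjusted p = 0.146), the mitochondrial ribosome gene Mrps31 at -0.64 ± 0.21 (0.238) and the complex I subunit gene Ndufs4 at -0.43 ± 0.17 (0.378).

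Taf1b, a factor gene of RNA polymerase I initiation, was at -0.91 ± 0.20 and Znrd1, a subunit gene of RNA polymerase I, at -0.84 ± 0.18 (limma adjusted p = 0.0279 and 0.0299). On the 12 h cadmium arrays Taf1b read -0.69, -1.20 and -0.65 and Znrd1 read -0.83, -0.49 and -1.07, below all PBS arrays of either gene. Etf1, which encodes the release factor that ends translation, was at -0.70 ± 0.15 (adjusted p = 0.0279), and its 5 probe sets ran from -0.95 to -0.36. Eif3j1, a translation initiation factor gene with a close copy in the mouse genome, was at -0.88 ± 0.20 (adjusted p = 0.0363). Trdmt1, a tRNA methyltransferase gene, was at -0.91 ± 0.21 and Ipo7, a nuclear import receptor gene, at -0.86 ± 0.19 (adjusted p = 0.0444 and 0.0330). These 6 genes were described side by side after their values were seen, and no test was made of them as a group. Of 62 genes in the list of splicing factors and RNA-binding motif proteins, 0 were called, against 0.461% of all genes. Above 0 lay 16 of them, against 53.9% of all genes, and the median was -0.13. At an unadjusted p under 0.05 there were 0 higher and 8 lower, against 3.91% and 4.71% of all genes. Rbm25 was at -1.14 ± 0.33 and the splicing factor gene Srsf5 at -0.83 ± 0.23 (limma adjusted p = 0.146 and 0.127). Ogt, the gene of O-GlcNAc transferase, was at -1.03 ± 0.26 (0.0777). That enzyme is neither a splicing factor nor an RNA-binding motif protein, but Ogt was in the list and among the 8.

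The remaining calls were in none of the 33 lists. Npc1, which moves cholesterol out of late endosomes, read -0.35, -0.18 and -0.35 on the 3 h cadmium arrays and 0.58, 0.30 and 0.71 on the 12 h cadmium arrays. PBS arrays lay between -0.12 and 0.11, so the cadmium arrays were below them at 3 h and above them at 12 h, and the time difference was 0.82 ± 0.16 (limma adjusted p = 0.0231). Gosr1, a Golgi transport gene, had the opposite course, with 0.38, 0.43 and 0.22 at 3 h and -0.34, -0.34 and -0.13 at 12 h on the cadmium arrays and a time difference of -0.62 ± 0.14 (adjusted p = 0.0329). Gja4, which encodes the gap junction protein connexin 37, read 0.16, 0.099 and -0.33 at 3 h and 0.49, 0.79 and 1.27 at 12 h on the cadmium arrays. Its 12 h cadmium arrays lay above all PBS arrays, and the time difference was 0.87 ± 0.17 (adjusted p = 0.0202). The size rested in part on array 3, at 0.50 on arrays 1 and 2 and 1.61 on array 3, and the call ended without array 3 of either group at 3 h (0.124) or 12 h (0.105).

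The actin-severing protein gene Gsn was higher by 0.55 ± 0.12, whereas the actin-binding cofilin gene Cfl2 was lower, at -0.51 ± 0.11 (limma adjusted p = 0.0299 and 0.0279). The 2 probe sets of Cfl2 were at -0.96 and -0.062. Lmo7, a gene of cell junctions, was at -1.07 ± 0.22 and Ctsk, which encodes a collagen-degrading protease, at -0.57 ± 0.13 (adjusted p = 0.0277 and 0.0414). Tmem43, a nuclear envelope protein gene, was higher at 0.84 ± 0.17 (adjusted p = 0.0258), with 0.90, 0.50 and 0.59 on the 12 h cadmium arrays and all 3 h cadmium arrays below 0. Higher calls also included Lysmd1 (0.79), Prrg2 (0.68) and the microtubule-binding gene Spef1 (0.54). Lower calls also included R3hcc1 (-0.58), the phosphatase gene Dusp12 (-0.78), Def8 (-0.78), Ankrd40 (-0.80), the secreted protein gene Fam3c (-0.86) and Lancl2 (-0.87). R3hcc1 had the tightest interval of these, from -0.79 to -0.36, and among the 12 fits that left out 1 array it lost its call in 1, without 3 h cadmium array 1 (adjusted p = 0.0519).

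A sign change that was measured at each time on its own was less common. For 9 of the 38 genes the 3 h effect had an unadjusted p under 0.05, and in all 9 the 12 h effect did too, with the opposite sign. Over all 8251 genes, 29 had effects of opposite sign at an unadjusted p under 0.05 at each time, and 13 had effects of the same sign. The 5 of smallest p for the difference were Slc30a1, Npc1, Atf6, Cfl2 and Gosr1, whose 3 h effects were 0.25, -0.29, 0.17, 0.20 and 0.35 and whose 12 h effects were -0.22, 0.53, -0.36, -0.31 and -0.27. None of these 3 h effects was called on its own, and neither was that of any other gene.

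Just beyond the threshold, the uncalled genes of smallest p had adjusted p-values from 0.0556 to 0.0666 in limma. Upward they were Susd6 (0.63), Dpysl4 (0.75), the glycine cleavage enzyme gene Gldc (0.98), the integrin activator gene Fermt3 (0.39) and Klc4 (0.47). Downward they were Pigq (-0.40), the adhesion receptor gene Vcam1 (-0.59), Mt1 (-0.84), Zfp35 (-0.65) and Aard (-0.47). Of 1589 probe sets that name no single gene, 0 were called in limma and 86 had an unadjusted p under 0.05 (5.41%).

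Lists of limb patterning showed few calls, and 0.461% of all genes were called. The 34 genes for limb axis transcription factors held 0 calls, with a median of -0.075 and 10 above 0, against 53.9% of all genes. The 31 Hox genes held 0 calls and a median of 0.035, and the 22 genes of the FGF pathway 0 and 0.073. Of 15 Hedgehog pathway genes, Ccnd1 was the 1 called, and the receptor gene Ptch1 was at -0.42 ± 0.21 (limma adjusted p = 0.578). Among 33 BMP pathway genes the receptor genes Acvr2a and Bmpr1a were at -0.51 ± 0.20 and -0.51 ± 0.24, and among 42 Wnt pathway genes the signal relay gene Dvl1 was at 0.71 ± 0.19, all uncalled. Of 20 retinoic acid pathway genes, 0 were called, with the binding protein gene Crabp1 at 0.91 ± 0.35 and the coactivator gene Ncoa3 at -0.59 ± 0.16. Of 25 glucocorticoid-responsive genes the 1 called was Mt2, and Fkbp5 was at -0.51 ± 0.15 and Sgk1 at 0.57 ± 0.24. In all, 7 of 33 lists held a called gene. The medians of the other 26 ran from -0.13 to 0.24, and 20 of them lay within 0.1 of 0.

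Markers of other cell types and of RNA quality were read beside these results. Of 22 measured endothelial markers, 0 were called and 20 lay above 0, against 53.9% of all genes, with a median of 0.24. The called gene Gja4 was not in this list, so the count of 0 does not cover it. At an unadjusted p under 0.05 there were 7 higher and 1 lower, with the receptor gene Tie1 at 0.66 ± 0.17 (limma adjusted p = 0.0718), Eng at 0.57 ± 0.23 and Cldn5 at -0.34. Vwf was at 0.49 ± 0.14, with 1 probe set at 1.03 and the other at -0.041. The mean endothelial log2 ratio lay between -0.091 and -0.032 on the 3 h cadmium arrays and between 0.096 and 0.39 on the 12 h ones, with the highest value on array 3. Gja4 and the glycolysis list were highest on the same array, where the glycolysis mean was 0.45 against 0.13 and 0.035 on arrays 1 and 2. Red blood cell markers had a median of 0.19 over 18 genes with 0 called, and their mean on 12 h cadmium array 3 was 0.36 against -0.0014 and 0.019 on arrays 1 and 2. The part of these cells in the results for Gja4 and glycolysis was not tested. The p53 target mean was 0.34, 0.32 and 0.31 on 12 h cadmium arrays 1, 2 and 3. Of its called members, Zmat3 and Cdkn1a were highest on array 3, Ccng1 on array 1 and Phlda3 on array 2. The part of these cells in the p53 target values was not tested either.

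Markers of limb mesoderm held 0 calls among 27 genes, with a median of 0.015. Those of surface and ridge ectoderm held 0 among 44, with a median of -0.057. The mean ectoderm log2 ratio lay between 0.086 and 0.17 on the 3 h cadmium arrays and between 0.0063 and 0.10 on the 12 h ones. On the PBS arrays it lay between -0.042 and 0.023 at 3 h, and between -0.064 and 0.053 at 12 h. The cadmium arrays therefore lay above all PBS arrays at 3 h and overlapped them at 12 h. The part of ectoderm cells in the calls was not tested. The 23 myeloid, 19 muscle progenitor and 18 neural crest and nerve markers held 0 calls each, with medians of 0.079, 0.070 and 0.043. The log2 ratio of 3' to 5' control probe sets, a sign of RNA integrity, had a time difference of -0.22 for Gapdh and 0.0087 for actin. The Gapdh value ran from -0.40 without 12 h cadmium array 2 to 0.015 without 12 h cadmium array 1, and its part in the calls was not tested.

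**Figure D3:**
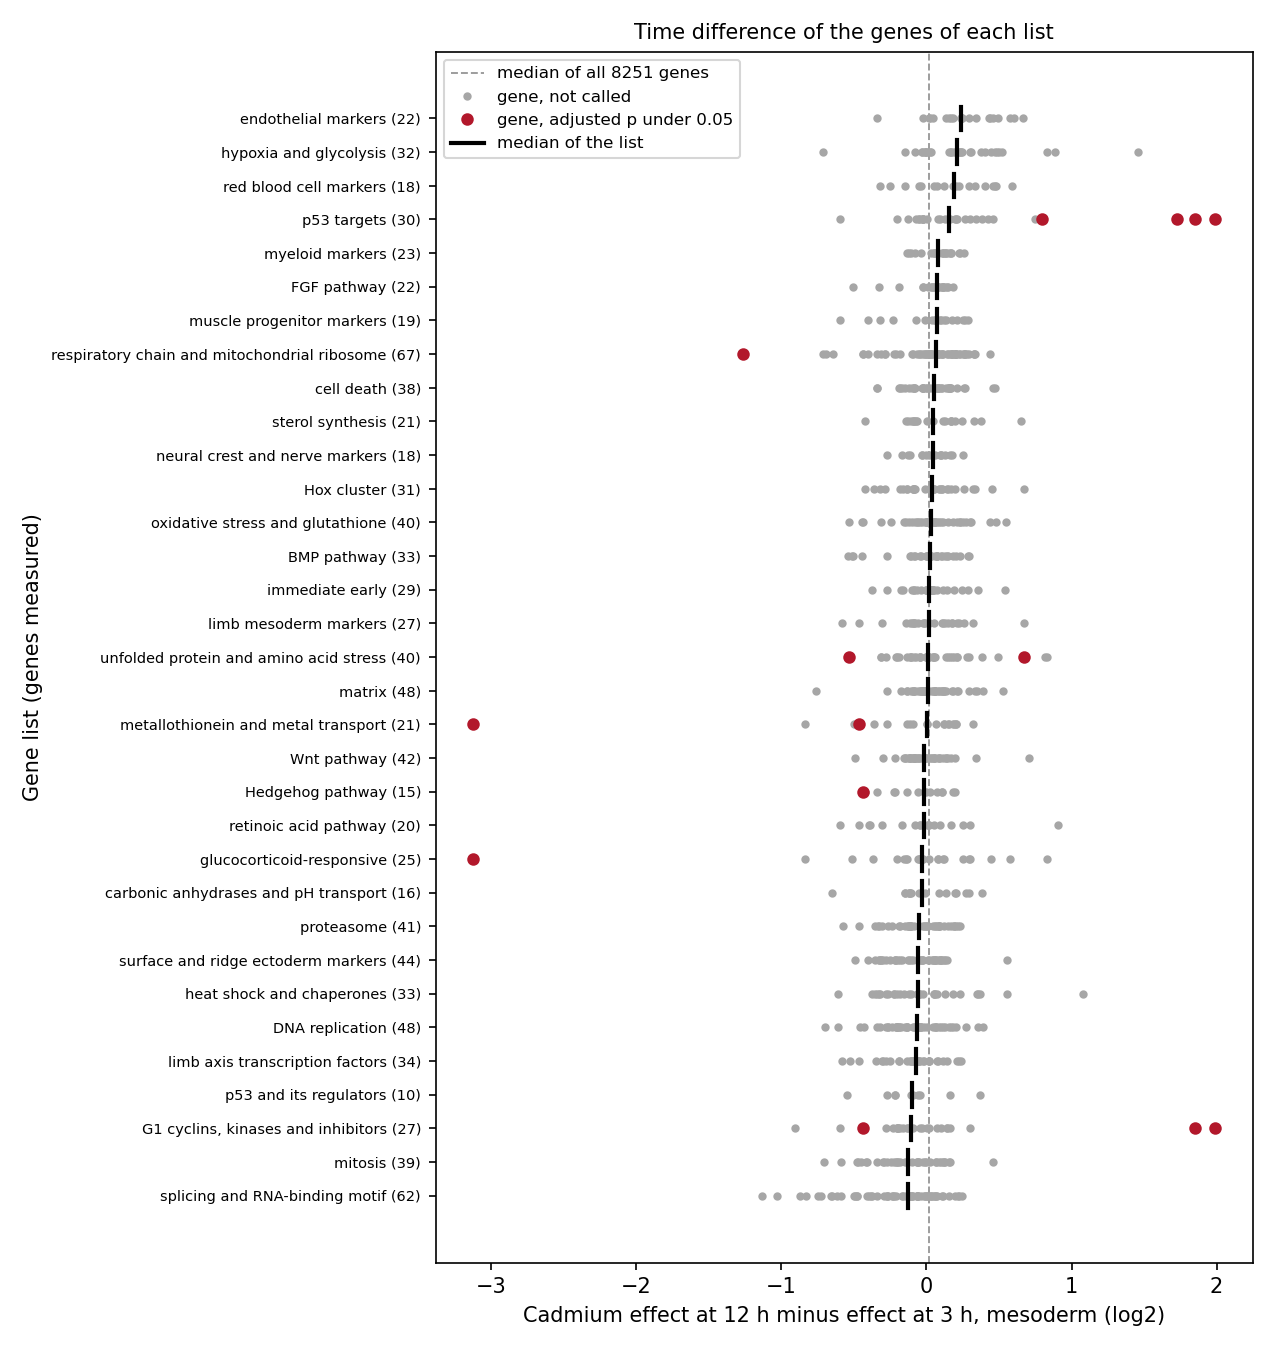
Time difference of cadmium in mesoderm (horizontal axis, log2) for the measured genes of 33 lists, with list size in parentheses. Points are genes (red where called), bars are list medians and the dashed line is the median of all genes at 0.015. In the 26 lists without a call the medians run from -0.13 to 0.24, while single genes such as Mt2 at -3.13 stand far out.

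The same contrast in ectoderm and with acetazolamide put the mesoderm values in context. Of the 38 genes, 36 had an ectoderm time difference of the same sign, against 67.3% of all genes. In 21 of them it also had an unadjusted p under 0.05, against 3.49% of all genes in either direction, and in 9 it was at least as large as in mesoderm. Mt2 was at -2.06 in ectoderm, Ccng1 at 1.71, Nek7 at -1.09 and Cdkn1a at 1.16. In ectoderm itself 1 gene was called, the adhesion gene Mcam, which was at 0.24 in mesoderm (limma adjusted p = 0.578), and the median interval width to either side was wider, at 0.49. The difference between the tissues was tested directly, and 0 genes passed in limma, with 86 at an unadjusted p under 0.05 (1.04%) and a smallest adjusted p of 0.9999. Of the 38, 6 were among those 86. Mesoderm minus ectoderm was 1.30 for Phlda3, 0.87 for Npc1, 0.68 for Gja4, -0.96 for Lmo7, -0.75 for Ipo7 and -0.66 for Ctsk. The 38 were chosen by their mesoderm values, which also enter this difference, so the count of 6 is a description. For Mt2 the tissue difference was -1.07 (95% interval -2.24 to 0.11) and for Ccng1 0.28 (-1.21 to 1.76), so sizable differences between the tissues lie within these intervals.

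With acetazolamide, a carbonic anhydrase inhibitor measured against its own oil vehicle, 35 of the 38 genes had a mesoderm time difference of the same sign, against 62.5% of all genes. In 5 of them, Slc30a1, Atf6, Cfl2, Gsn and Ctsk, it had an unadjusted p under 0.05, and 0 of 8251 genes were called in limma with acetazolamide (190 at an unadjusted p under 0.05, 2.30%). Mt2 was at -0.50, Cdkn1a at 0.52 and Phlda3 at 0.47, all smaller than with cadmium, while Ccng1 was at -0.32 and Zmat3 at -0.53 in the opposite direction. In the direct test of cadmium minus acetazolamide, 0 genes passed in limma and 187 had an unadjusted p under 0.05 (2.27%), 17 of the 38 among them. The cadmium values that chose the 38 also enter this difference, so the count of 17 is a description. Mt2 came closest, at -2.63 ± 0.51 (adjusted p = 0.148), and it was the 1 gene to pass without 12 h PBS array 1 or 3 h oil array 2. Zmat3 differed by 1.32 ± 0.29 (adjusted p = 0.305) and Ccng1 by 2.31. Gsn was nearly equal with the agents, at 0.55 with cadmium and 0.58 with acetazolamide, and the 95% interval of the difference ran from -0.44 to 0.38.

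**Figure D4:**
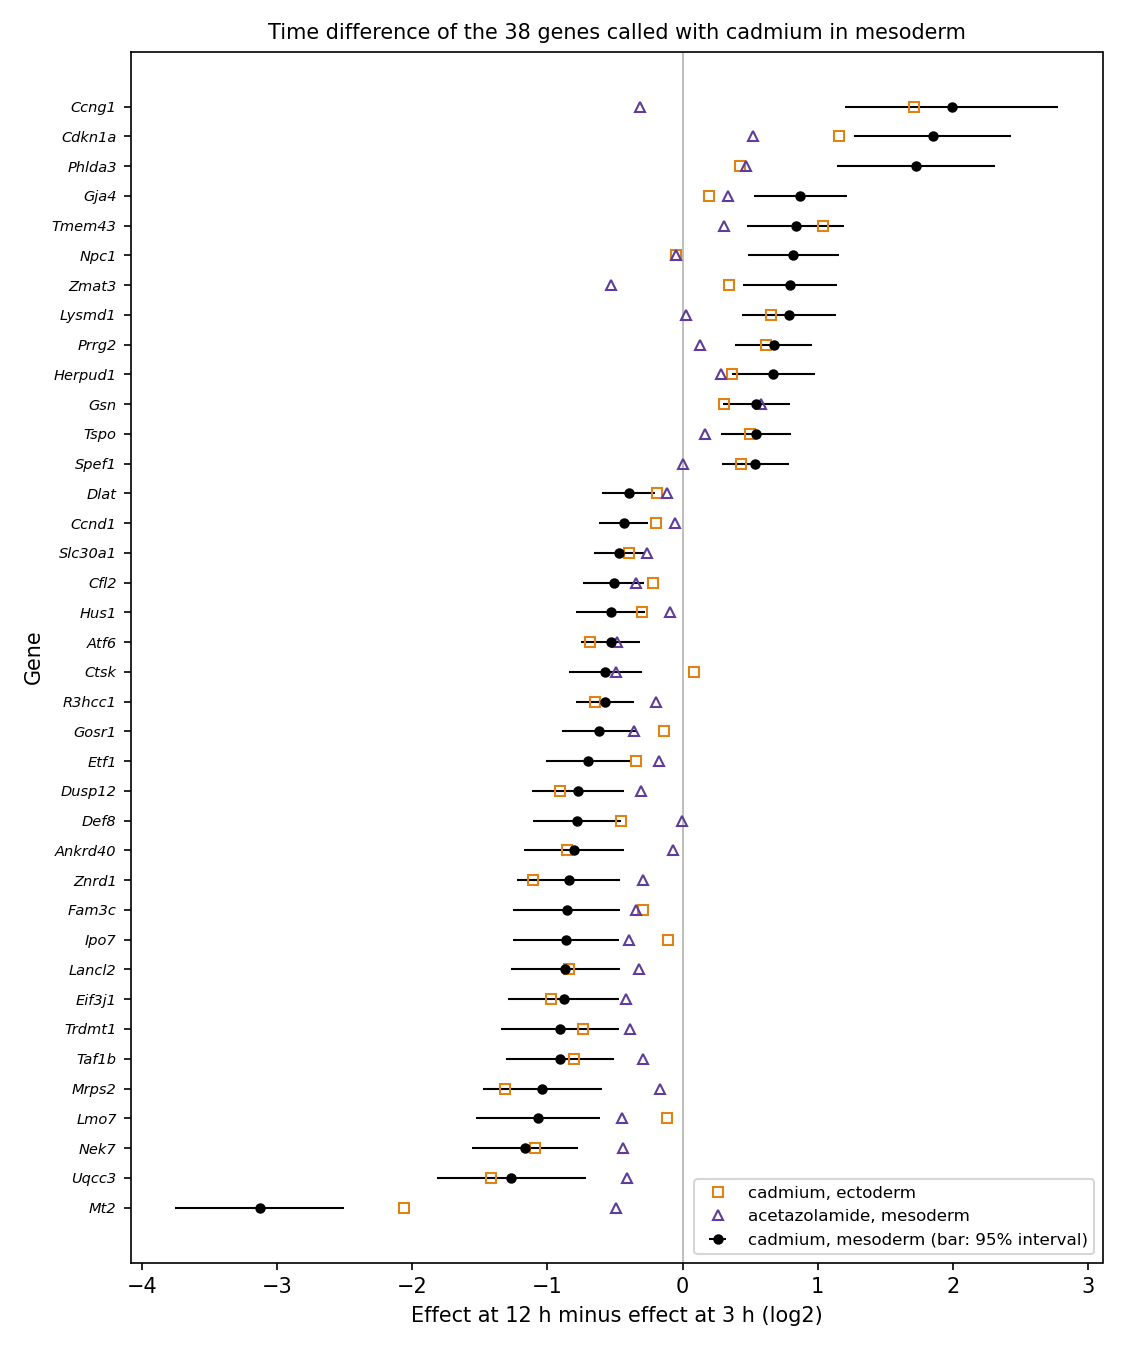
Time difference (horizontal axis, effect at 12 h minus effect at 3 h, log2) of the 38 called genes. Black points with 95% intervals are cadmium in mesoderm, orange squares cadmium in ectoderm and purple triangles acetazolamide in mesoderm. Ectoderm lies on the same side of 0 for 36 genes, and Mt2 is at -3.13 in cadmium mesoderm, -2.06 in ectoderm and -0.50 with acetazolamide.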

How the data were processed

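RNA was measured on Affymetrix MG-U74Av2 arrays. The authors deposited 1 ratio per probe set and array, and the labels do not say how it was made. The 12488 ratios of vehicle arrays 1 and 2 added up to 2 in each comparison, within 3e-07, and those of vehicle array 3 equalled 1. That treated arrays 1 and 2 share the first denominator and array 3 the second is an inference. Ratios were converted to log2. The 10833 probe sets naming 1 gene, without control probe sets, were averaged per gene to 8251 genes, 2073 of them with several. Names come from the platform annotation, with 10839 probe sets matched by Entrez identifier.

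All 48 arrays were fitted with limma 3.58.1 in R 4.3.3, with a term for each of 16 denominators, 8 agent effects, 24 residual degrees of freedom and 1 precision weight per comparison (1.53 for 3 h and 1.66 for 12 h cadmium mesoderm, from 0.439 to 1.09 elsewhere). The median residual SD of those 2 comparisons was 0.120 and 0.115 in log2. Standard errors were moderated by eBayes, Benjamini-Hochberg adjustment ran over all genes, genes under 0.05 were called, and intervals are at 95%. The steps were also run on simulated data. These had independent noise drawn from the fitted spread and weights, so that run cannot show whether the weights suit the real arrays. Ratios allow no filter on dim probe sets and do not show signal over background. Precision is limited by the number of arrays.

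The members, lists, block and weights were chosen with earlier results of these data known, including counts without the weights. Genes eligible to be named were the called ones (at most 20 per direction), called members of 33 lists with up to 3 uncalled members of smallest p each, the 5 of smallest p with opposite effects, and the 5 uncalled of smallest p per direction. Dlat and Hus1, beyond the 20, and further uncalled list members were named after their values were seen. The alternatives were fits without block or weights, on fewer arrays, with a replicate block, centred arrays, robust eBayes, separate probe sets, and leaving out each array. The fit on the 12 arrays compared with weights was added after the data were seen.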

Additional observations from a re-analysis of the deposited data

Results flagged for a closer look

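For 38 genes the cadmium effect in mesoderm differed between the times in the test of that difference itself, in limma at an adjusted p under 0.05. In the higher direction at 12 h, as log2 time differences, these were Ccng1 (1.99), Cdkn1a (1.85), Phlda3 (1.73), Gja4 (0.87), Tmem43 (0.84), Npc1 (0.82), Zmat3 (0.80), Lysmd1 (0.79), Prrg2 (0.68), Herpud1 (0.67), Gsn (0.55), Tspo (0.54) and Spef1 (0.54). In the lower direction the genes were Mt2 (-3.13), Uqcc3 (-1.27), Nek7 (-1.16), Lmo7 (-1.07), Mrps2 (-1.04), Taf1b (-0.91), Trdmt1 (-0.91), Eif3j1 (-0.88), Lancl2 (-0.87), Ipo7 (-0.86), Fam3c (-0.86), Znrd1 (-0.84) and Ankrd40 (-0.80), followed by Def8 (-0.78), Dusp12 (-0.78), Etf1 (-0.70), Gosr1 (-0.62), R3hcc1 (-0.58), Ctsk (-0.57), Atf6 (-0.53), Hus1 (-0.53), Cfl2 (-0.51), Slc30a1 (-0.47), Ccnd1 (-0.44) and Dlat (-0.40). The count rests on the weighted fit over all 48 arrays, with 3 arrays in each group.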

How the results depend on the processing

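The 38 genes kept their direction in all gene-level alternatives, but the count did not keep its size. It was 1 (Mt2) without block and weights, without weights alone, on only the arrays compared with or without weights, and on only the first and second arrays. It was 24 with each array centred on its median, of which 22 were among the 38, 36 with probe sets kept apart and 38 with robust eBayes. Leaving out 1 array gave 5 to 95 calls. The replicate block, which pairs arrays by number within each comparison, gave 76 calls (28 higher, 48 lower) and kept all 38. The numbers are not known to mark shared pools: the difference between arrays 1 and 2 correlated at 0.063 between 3 h PBS and cadmium, at 0.65 between 12 h PBS and cadmium, and from -0.43 to 0.048 between other groups. For cadmium minus acetazolamide the count was 1 (Mt2) with the replicate block and 0 to 1 when 1 array was left out. For mesoderm minus ectoderm it was 0 in every alternative. With probe sets kept apart, Vwf turned to -0.041 and Egr1 to -0.063. Of 2310 values of the 110 named genes under the alternatives, 1802 kept their side of the threshold, 449 lost a call, 57 gained one and 2 reversed. With all 48 arrays and the same block, the count was 38 with the weights and 1 (Mt2) without them. The other calls of the main fit therefore depend on the weights. Fits on the arrays compared also have fewer arrays to estimate the spread. Causes of the other changes were not tested.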
